A study of Mus musculus with 16 samples.

Results

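RNA levels were compared between coronal suture cells of Twist1 heterozygous mice kept with thyroxine and the same cells kept in control medium. The comparison used 8 of the 16 arrays of the series, chosen by their titles as those of the mutant genotype, and formed 4 pairs, each of a thyroxine array with its control array from the same culture on the same day. The mice were labelled C57BL6 with the genotype Twist 1+/-, and the cells of 2 litters had been separated by genotype and sex, so that the heterozygous cells formed 1 female and 1 male culture. Control cells were fed DMEM, treated cells received DMEM with thyroxine (log10 of the concentration in mol per liter, -6), and RNA was taken after 3 or 7 days. Growth medium held fetal bovine serum and antibiotics. Each of the 4 groups of medium and day thus held 2 arrays, and each array stood for cells of a condition grown in 3 wells of a plate with 6 wells. The sources used here do not say whether these wells were pooled, which part of Twist1 the mutant allele lacks or how old the mice were. The other 8 arrays, of wild-type C57BL6 cells in the same layout, served to estimate the spread and to test where the response differed by genotype. With 1 culture for each genotype and sex, p-values measure only the spread between these pairs of arrays, which may be technical, and not the spread between animals.

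Thyroxine is a prohormone secreted by the thyroid. Deiodinases in the target cell convert it to the more active triiodothyronine (Dio2) or inactivate both hormones (Dio3), and triiodothyronine binds the nuclear receptors encoded by Thra and Thrb, which act as heterodimers with retinoid X receptors on DNA elements built from copies of AGGTCA. In skull bones and sutures thyroid hormone promotes bone growth, and an excess of it is a known cause of early suture fusion. Twist1, a transcription factor with a basic helix-loop-helix domain, is expressed in suture mesenchyme, and loss of a copy of it leads to fusion of the coronal suture in mice and in Saethre-Chotzen syndrome.

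Values below are log2 array values, and differences are thyroxine minus control on the log2 scale. A gene was called when limma's adjusted p was under 0.05 over the 13453 genes tested. Over both days thyroxine changed 27 genes (0.201% of those tested). Of these, 22 rose (0.164%) and 5 fell (0.0372%), and the unadjusted p was under 0.05 for 1397 genes. Klf9, a Krüppel-like transcription factor that thyroid hormone receptors induce directly, Igfbp4, a secreted binding protein of insulin-like growth factors, and Epdr1, an ependymin-related glycoprotein, rose in 4 of 4 pairs by 1.44-fold to 1.5-fold. In all, 11 of the 27 genes moved the same way in 4 of 4 pairs: Mir328, Fam180a, Rny3, Klf9, Igfbp4, Epdr1 and Heg1 upward and Pbp2, Scarna2, Galnt18 and Huwe1 downward. Among all tested genes 4.53% were higher and 8.1% lower in 4 of 4 pairs. The remaining 16 calls did not have the same sign in all 4 pairs. Taken in the direction of each call, the 27 differences had a median of 0.16 at 3 days against 1.56 at 7 days. The genes and their directions come from these same pairs, so the gap is no test between days.

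These calls rested on single pairs and on the model. Of the 27 genes, 0 were left without the female pair at 7 days, 10 without the male pair at 7 days, 20 without the male pair at 3 days and 27 without the female pair at 3 days, when 232 genes were called in all. Without limma's intensity trend 0 genes passed over both days (1251 with an unadjusted p under 0.05). Klf9, Igfbp4 and Epdr1 passed under 7 of 9 other settings of the fit, Heg1 and Fam180a under 6, Galnt18 and Pbp2 under 4 and Huwe1 and Dbp under 3.

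The 3 protein-coding genes with the smallest adjusted p among those that moved the same way in all pairs are shown with the DNA upstream of their start sites, since they moved together in all pairs. Each sequence holds the 250 bases before the annotated start, 5′ to 3′ on the gene's strand, from RefSeq on GRCm38.p6. Klf9 lies on the plus strand at chr19:23140976-23141225, Igfbp4 on the plus strand at chr11:99040994-99041243 and Epdr1 on the minus strand at chr13:19619831-19620080. Capitals mark matches on either strand to CCAAT or to TATAAA or to GGGCGG.
Klf9: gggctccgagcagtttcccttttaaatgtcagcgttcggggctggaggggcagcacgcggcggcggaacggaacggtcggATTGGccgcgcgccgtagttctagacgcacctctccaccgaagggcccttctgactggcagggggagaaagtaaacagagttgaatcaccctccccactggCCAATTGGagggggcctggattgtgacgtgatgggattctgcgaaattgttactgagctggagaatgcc
Igfbp4: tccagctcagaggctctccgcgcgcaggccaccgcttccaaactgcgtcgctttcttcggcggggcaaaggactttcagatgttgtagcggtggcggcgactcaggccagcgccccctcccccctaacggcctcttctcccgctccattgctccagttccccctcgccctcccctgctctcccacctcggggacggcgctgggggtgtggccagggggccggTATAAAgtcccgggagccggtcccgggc
Epdr1: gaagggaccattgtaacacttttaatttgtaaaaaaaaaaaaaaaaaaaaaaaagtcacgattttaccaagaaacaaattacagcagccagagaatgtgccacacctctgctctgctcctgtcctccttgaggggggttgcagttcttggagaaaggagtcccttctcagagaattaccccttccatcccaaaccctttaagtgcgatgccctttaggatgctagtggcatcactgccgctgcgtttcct
Klf9 held 3 matches to CCAAT or its reverse complement ATTGG, of which the 2 in the later cluster share bases, Igfbp4 held 1 TATAAA and Epdr1 held none of the 3 motifs. Over windows of 300 bases, 250 before and 50 after the start, TATAAA was present in 13.6% of all 32851 promoters and in 7.79% of the 13333 promoters of tested genes, and CCAAT in 37.4% and 36.7%. The receptor half-site AGGTCA, searched on both strands, was present in 16.3% of all promoters, in 12.4% of those of tested genes, in 3 of the 25 promoters of called genes (18 genes had an entry) and in 0 of the 7 promoters of called genes that moved the same way in every pair. These are matches of letters in a short window and say nothing of sites outside it.

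The arrays were of like overall level, with medians over the tested genes from 6.04 to 6.24. Genes of mesenchymal cells were at high levels on all 8 arrays: Prrx1, a homeobox gene of skull mesenchyme, at 10.37 to 10.71, Postn at 10.37 to 11.43 and Col1a1 at 12.36 to 12.93. Of 19 osteoblast lineage genes named on the array 12 were tested, among them Alpl at 4.95 to 5.84, Pth1r at 5.17 to 5.93 and Sost at 3.74 to 4.54. Sp7 at 3.54 to 4.24, Ibsp at 2.15 to 2.78, Bglap at 2.46 to 3.64, Dmp1, Phex, Mepe and Bmp2 were not tested, since their means over the 16 arrays were below the level needed (3.91). Macrophage genes were present, with Csf1r at 8.43 to 10.26, Adgre1 at 7.27 to 9.90 and Lyz2 at 11.52 to 12.86. The mean level over the 18 tested of 20 macrophage and osteoclast genes named on the array ran from 6.83 to 8.52 in control and from 6.86 to 8.43 in thyroxine arrays. The endothelial gene Pecam1 was at 3.89 to 4.50. Twist1 itself lay at 6.51 to 7.55 and differed by 0.12 ± 0.16 (4 pairs, limma's SE, adjusted p = 0.852). The median over the Twist1+/- arrays was 7.15, and the mean over all 16 arrays was 6.98. Its level was not tested between genotypes and does not check them. A heterozygote keeps an intact copy, and what RNA the mutant allele still gives is not known here. Here and below the SE is that of the limma model. It rests on the spread of all 8 pairs within genotype and day, and not on the spread among the 4 Twist1+/- pairs alone. In such bulk samples, fewer cells of a type and less RNA per cell cannot be told apart.

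The 2 control arrays at 7 days stood apart from the other 14 in a small number of probe sets: 48 were at least 1 lower on both than on any other array, against at most 2 in any of the 119 other pairs of arrays. The brightest probe set of 8 called genes was among them (Atp5d, Rps18, Prss23, Ywhag, Myl12a, Zfp526, Tmem202 and Tpt1). Setting those genes aside, a choice made after the values were seen and without a new fit, leaves 19 genes called over both days, 14 of them higher. As all 8 were called and higher, this count follows from their removal and tests nothing further.

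Klf9 read 7.77 and 7.87 on the female and male control arrays at 3 days and 7.65 and 7.34 at 7 days, against 8.35, 8.17, 8.24 and 8.20 with thyroxine. The lowest thyroxine array lay above the highest control array, so the groups did not overlap. The mean rise over 4 pairs was 0.58 ± 0.08 (limma's SE, adjusted p = 0.00979), with pair differences of 0.58, 0.30, 0.59 and 0.86. In wild-type pairs the differences were 0.34, 0.41, 0.52 and 0.84, and the difference between genotypes was 0.06, with a 95% interval from -0.20 to 0.31. A difference of the size of the response itself lay outside that interval.

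**Figure D1:**
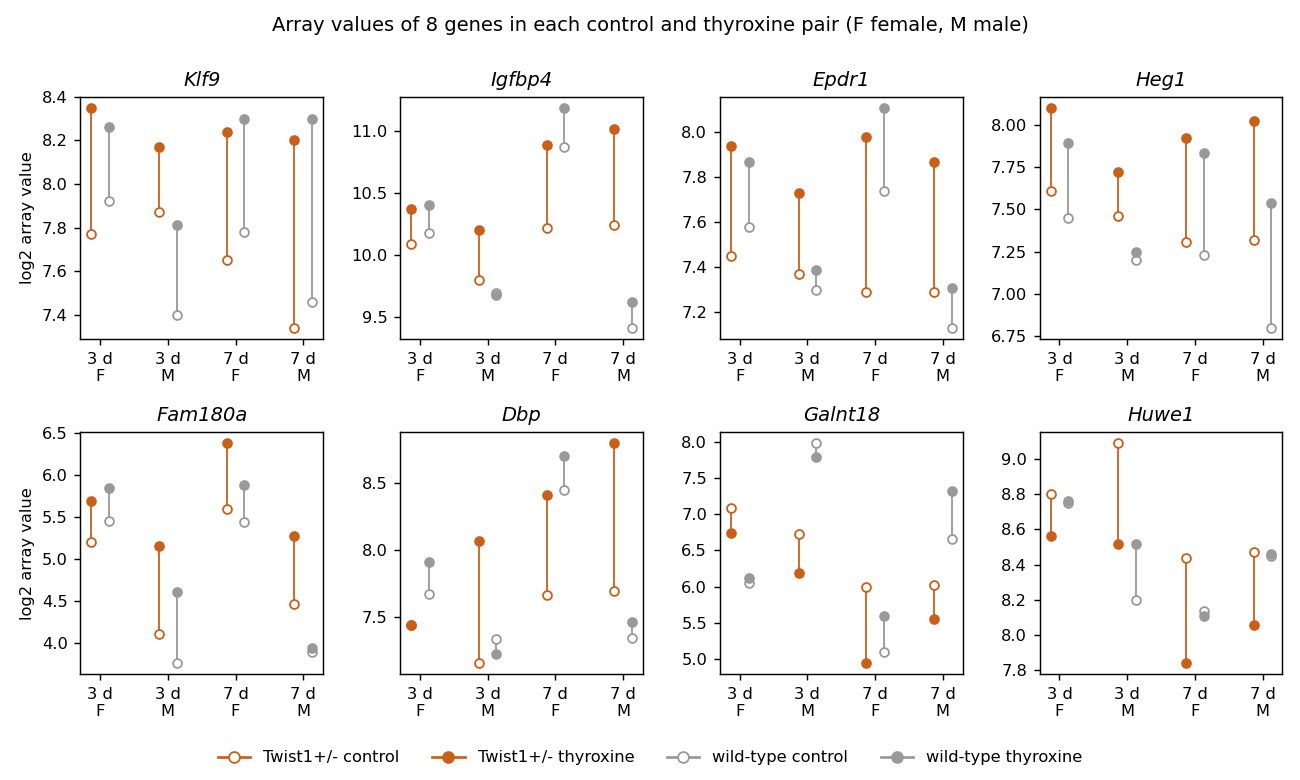
Log2 array values of 8 called genes for each pair of a control array (open circle) and a thyroxine array (filled circle) of the same culture and day, with Twist1+/- in orange and wild type in grey, F female and M male. Klf9 and Igfbp4 were higher with thyroxine in all 4 Twist1+/- pairs, while Galnt18 and Huwe1 were lower in all 4 of them.

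Dbp, a clock-controlled transcription factor of the PAR bZIP family, read 7.44, 7.15, 7.66 and 7.69 in control arrays (3 days female and male, then 7 days female and male, the order used throughout) and 7.44, 8.07, 8.41 and 8.80 with thyroxine. The female pair at 3 days read the same in both media and the other pairs were higher with thyroxine, by 0.92, 0.75 and 1.11. The mean over all 4 pairs was 0.70 ± 0.12 (adjusted p = 0.0429). Among the 17 tested clock genes Dbp was the only call over both days, and the list's median was 0.035 beside -0.032 for all tested genes. Bhlhe41, a clock repressor, was 0.27 and 0.93 higher in the 3-day pairs and 0.05 and 0.06 higher in the 7-day pairs, and it did not pass the test. Trp53inp2, a regulator of autophagy described as a coactivator of thyroid hormone receptors, read 7.06, 6.68, 6.66 and 6.49 in control and 7.05, 7.01, 7.65 and 7.46 with thyroxine. It rose by 0.57 ± 0.10 (adjusted p = 0.0429) over both days, and the thyroxine arrays at 7 days were the highest of the 8. Trp53inp2 falls outside the rule for named genes, since its female pair at 3 days was not higher with thyroxine.

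Among secreted proteins, Igfbp4 read 10.09, 9.80, 10.22 and 10.24 in control and 10.37, 10.20, 10.89 and 11.02 with thyroxine. The ranges touch, since the thyroxine array of the male culture at 3 days lay below the control arrays at 7 days, but each thyroxine array exceeded its own control. The rise was 0.53 ± 0.07 (adjusted p = 0.0072), with 0.34 ± 0.10 at 3 days and 0.72 ± 0.10 at 7 days. The wild-type pairs changed by 0.22, -0.01, 0.32 and 0.21, and the difference between genotypes was 0.35, with a 95% interval from 0.14 to 0.56 that did not pass adjustment over all genes (adjusted p = 0.353). Igfbp4 was the only call among 18 tested genes of the insulin-like growth factor axis, whose median was 0.029.

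Epdr1 read 7.45, 7.37, 7.29 and 7.29 in control and 7.94, 7.73, 7.98 and 7.87 with thyroxine, with no overlap. It rose by 0.53 ± 0.08 (adjusted p = 0.0102), and in wild-type pairs it differed by 0.23 on average. Fam180a read 5.20, 4.11, 5.60 and 4.47 in control and 5.69, 5.16, 6.38 and 5.28 with thyroxine. The female culture was above the male one in either medium, so the groups overlapped although each pair rose, by 0.78 ± 0.13 (adjusted p = 0.0344). Heg1, a transmembrane protein of cell junctions known from heart and vessel development, read 7.61, 7.46, 7.31 and 7.32 in control and 8.10, 7.72, 7.92 and 8.02 with thyroxine. Its groups did not overlap, and it rose by 0.52 ± 0.09 (adjusted p = 0.0266) beside 0.46 in wild type (adjusted p = 0.203). Klf9, Epdr1, Heg1 and Fam180a were the 4 of the 27 genes that also moved the same way in 4 of 4 wild-type pairs, where 6.5% of all tested genes were higher and 6.33% lower in every pair.

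Sfrp4, a secreted WNT antagonist, and Htra1, a secreted serine protease that cleaves matrix and IGF-binding proteins, were just short of the threshold. Sfrp4 read 4.16, 3.71, 4.20 and 4.69 in control and 4.69, 4.60, 5.30 and 5.46 with thyroxine, a difference of 0.82 ± 0.15 (adjusted p = 0.0505). Htra1 read 8.28, 8.78, 7.93 and 8.29 in control and 8.99, 9.06, 8.55 and 8.56 with thyroxine, a difference of 0.47 ± 0.09 (adjusted p = 0.0702). Both were higher with thyroxine in 4 of 4 pairs, and neither is counted among the calls.

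On the lower side, Galnt18, which encodes a member of the family of enzymes that start mucin-type O-glycosylation, read 7.09, 6.72, 5.99 and 6.02 in control and 6.74, 6.19, 4.94 and 5.55 with thyroxine. It was lower at 7 days than at 3 days in either medium, and within each pair it was lower with thyroxine, with a mean difference of -0.60 ± 0.11 (adjusted p = 0.0437). Huwe1, a large HECT-type ubiquitin ligase, read 8.80, 9.09, 8.44 and 8.47 in control and 8.56, 8.52, 7.84 and 8.06 with thyroxine, a difference of -0.46 ± 0.08 (adjusted p = 0.0429). Pbp2, of the phosphatidylethanolamine-binding protein family, read 4.71, 4.32, 5.06 and 4.67 in control and 4.32, 3.93, 3.71 and 3.57 with thyroxine. It differed by -0.81 ± 0.14 (adjusted p = 0.0383), close to the level below which genes were not tested.

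**Figure D2:**
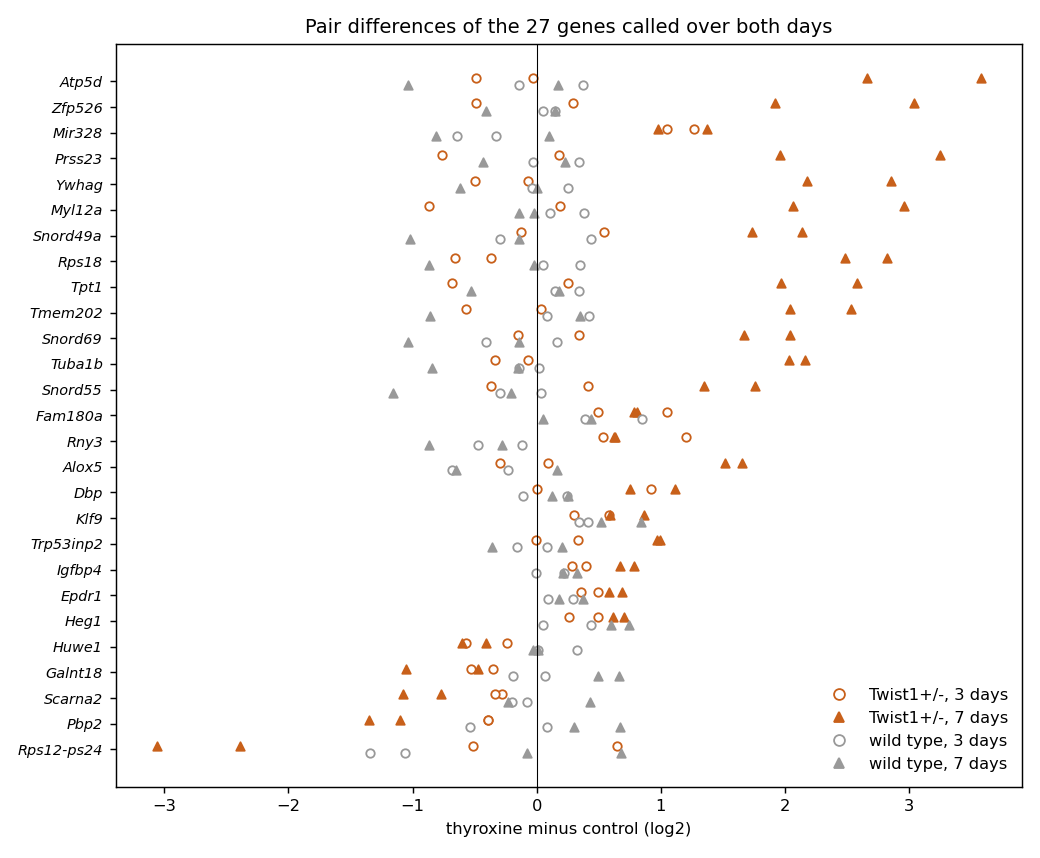
Thyroxine minus control (log2) for each pair of the 27 genes called over both days, with circles for 3 days, triangles for 7 days, orange for Twist1+/- and grey for wild type. Genes such as Atp5d and Rps18 had 7-day differences above 2 and 3-day differences near or below 0, whereas Klf9, Igfbp4 and Epdr1 were above 0 in every Twist1+/- pair.

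Genes of thyroid hormone handling gave no call. Of 15 tested genes for receptors, transport and metabolism, 0 were called over both days, 1 had an unadjusted p under 0.05 and the median was 0.038. The receptor genes differed by 0.19 ± 0.11 for Thra (adjusted p = 0.58) and 0.07 ± 0.15 for Thrb (adjusted p = 0.905). Dio2 differed by -0.14 ± 0.14 (adjusted p = 0.788), with lower values in the 3-day pairs, and by 0.21 with the mean of all its probe sets. Dio3 read 4.38, 4.53, 4.18 and 4.10 in control and 4.71, 4.84, 4.75 and 4.66 with thyroxine, without overlap, but its difference of 0.44 ± 0.18 did not pass the test (adjusted p = 0.446).

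Of 15 tested genes known to respond to thyroid hormone, Klf9 was the only call. In the list 6 genes were higher and 9 lower, with a median of -0.052, while 39.9% of all tested genes were higher over both days. Hr, a corepressor and classical direct target in brain and skin, read 4.19, 4.31, 4.56 and 3.90 in control and 4.42, 4.83, 4.79 and 4.52 with thyroxine, higher in 4 of 4 pairs by 0.40 ± 0.13 (adjusted p = 0.346). Bcl3, an NF-kappaB cofactor, was 0.36 ± 0.12 higher (adjusted p = 0.333), and Rcan2, an inhibitor of calcineurin, differed by -0.40 ± 0.13 (adjusted p = 0.347). An exact sign-flip test over 4 pairs cannot give a two-sided p below 0.125, which was the value for Klf9, Hr, Dio3 and Il6.

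At 3 days alone, limma called 0 genes, 318 had an unadjusted p under 0.05 and the smallest adjusted p was 0.998. The genes with the smallest p on the higher side were Rny3, Mir328, Csprs, Bhlhe41 and Fam180a. On the lower side they were Ahnak2, Plec, Ubr4, Dync1h1 and Lrp1, which differed by between -0.53 and -0.50 and did not pass the test (adjusted p = 0.998 each). Their male pair differed by -0.82 to -0.65 and their female pair by -0.35 to -0.20. Small nucleolar RNA genes had medians of 0.64 in that male pair and -0.30 in the female pair. The part of small RNA content in the 3-day values was not tested. Leaving out the female pair gave 66 calls at 3 days and leaving out the male pair gave 7, each with a single pair assumed to vary like the other groups.

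The female and male pairs at 3 days showed opposite patterns across genes, with a correlation of -0.27 (Spearman -0.25) over 13453 genes. At 7 days it was 0.38 (Spearman 0.33). The pairs of a day share no array, but all arrays were normalised together, and genes are not independent replicates. By at least 0.5, 14 genes were higher in both 3-day pairs, 3 lower in both and 110 opposite. At 7 days 105 were higher in both, 145 lower in both and 37 opposite.

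**Figure D3:**
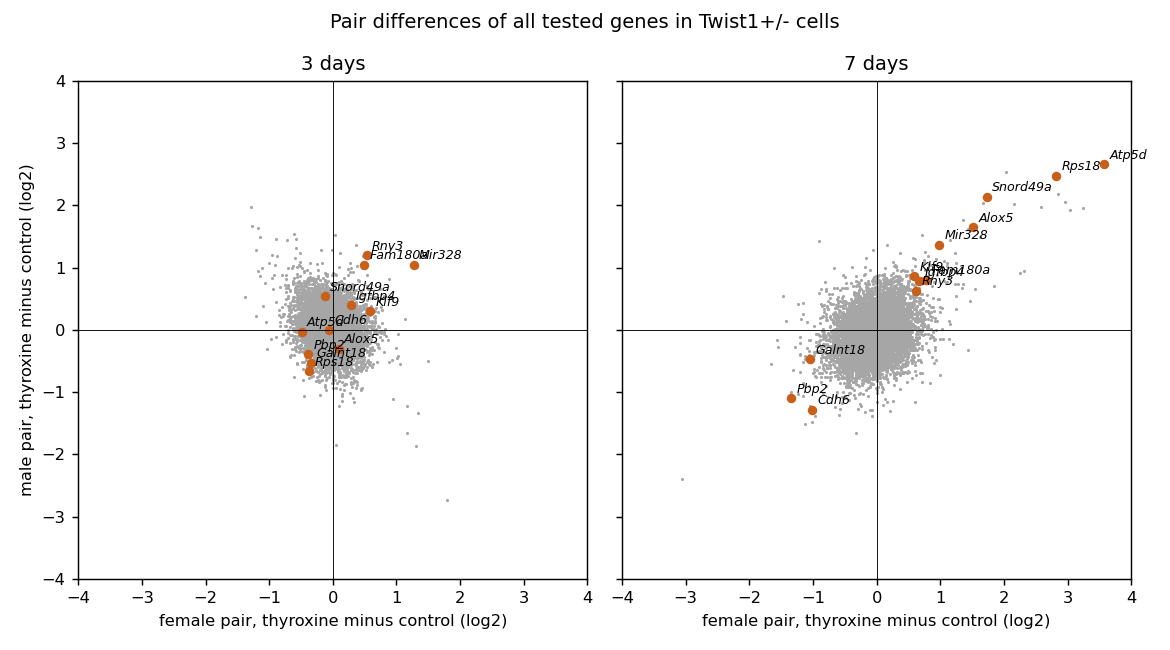
Thyroxine minus control (log2) in the male pair against the female pair for all 13453 tested genes (grey) at 3 days (left) and 7 days (right), with named genes in orange. The cloud leans downward to the right at 3 days (correlation -0.27) and upward at 7 days (0.38), where most of the labelled genes lie far from the origin.

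At 7 days thyroxine changed 103 genes (0.766% of those tested), with 59 that rose (0.439%) and 44 that fell (0.327%), and 2222 genes reached an unadjusted p under 0.05. When each array was centred on its median, 102 genes were called, 79 higher and 23 lower, so that 77.5% were higher in place of 57.3%. The direction of the majority of calls was the same, but the split depends on this scaling. The median over all tested genes was -0.06 as deposited and 0 after centring. The count also depended on the wild-type male culture, which shares only the estimate of spread: without its pairs 53 genes were called. It was 14 without the female and 16 without the male pair at 7 days, 348 and 351 without a pair at 3 days, and 22 without the intensity trend. Of the 103 genes, 24 had moved the same way in all 4 Twist1+/- pairs, 14 were small RNA genes and 13 had no characterised name. Taken in the direction of each call, the 103 differences had a median of 0.85 at 7 days against 0.03 at 3 days, and of -0.05 in wild type. The genes and their directions were chosen on the 7-day pairs, and that choice raises the 7-day median. The gap to 3 days and to wild type is therefore no test of a difference.

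Several regulators were higher at 7 days. Some genes here, and in the 7-day paragraphs down to that on Cdh6, were chosen after their values were seen. These are the ones not among the 10 largest changes of a direction or in a gene list. Snai1, a zinc finger repressor of epithelial genes, read 5.86 and 6.01 in the female and male control and 6.68 and 7.07 with thyroxine, a rise of 0.94 ± 0.13 (limma, adjusted p = 0.00328, 2 pairs), and at 3 days it differed by -0.13 and 0.09. Its 7-day response differed from that of wild type by 0.98 (adjusted p = 0.049). The AP-1 subunit Jund read 8.47 and 8.29 in control and 9.02 and 9.13 with thyroxine (rise 0.70 ± 0.10, adjusted p = 0.00644). Klf13, another Krüppel-like factor, rose by 0.65 (adjusted p = 0.0371). At 7 days Klf9 rose by 0.72 ± 0.12 (adjusted p = 0.0158) and Dbp by 0.93 (adjusted p = 0.0315).

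Alox5, the lipoxygenase that starts leukotriene synthesis, read 5.75 and 5.82 in control and 7.27 and 7.47 with thyroxine, a ratio of 3.00 (adjusted p = 0.000819). At 3 days it read 6.31 and 6.35 in control and 6.40 and 6.05 with thyroxine, so the control level was lower at 7 days. The 7-day response exceeded that of wild type by 1.83 (adjusted p = 0.0067). S100a11, a calcium-binding protein, rose by 0.93 (adjusted p = 0.014), and Cd209a, a C-type lectin of myeloid cells, by 0.79 (adjusted p = 0.0201). Ptgs2, the inducible cyclooxygenase, went the other way: it read 10.33 and 10.49 in control and 9.91 and 9.58 with thyroxine (difference -0.67, adjusted p = 0.0371). The chemokine gene Cxcl12 read 9.27 and 9.26 in control and 9.65 and 9.99 with thyroxine, a rise of 0.56 ± 0.12 (adjusted p = 0.0466).

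The matrix gene Loxl1, a lysyl oxidase that cross-links elastin, rose by 0.48 (adjusted p = 0.0466) as the only call among 33 tested extracellular matrix genes. Beside this list and the next ones, 0.766% of all tested genes were called at 7 days. Ndufa11 of respiratory complex I rose by 0.86 (adjusted p = 0.00328) and Mpc1 of the mitochondrial pyruvate carrier by 0.67 (adjusted p = 0.0466). In the respiratory chain list Atp5d was the only call, with 10 of 31 genes higher at 7 days, beside 39% of all tested genes, and a median of -0.075 beside -0.06. Among 24 stress response genes Ddit4, an inhibitor of mTORC1 signalling, rose by 0.56 (adjusted p = 0.0494) and Nqo1, a quinone reductase controlled by NRF2, fell by 0.68 (adjusted p = 0.0431). Slc7a11, the cystine transporter, differed by -0.68 (adjusted p = 0.0454).

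Cdh6, a type II cadherin, fell at 7 days. It read 6.01 and 5.39 in control and 5.95 and 5.39 with thyroxine at 3 days, against 5.44 and 5.36 in control and 4.43 and 4.08 with thyroxine at 7 days. The 7-day difference was -1.15 ± 0.18 (adjusted p = 0.0118), a level 2.21-fold higher in control. Nipal1, a magnesium transporter gene, differed by -0.87 (adjusted p = 0.0185), and Atr, the kinase that responds to stalled replication, by -0.81 (adjusted p = 0.0429). Of the 57 tested genes of cytosolic ribosomal proteins, Rps13 (-0.62, adjusted p = 0.039) and Rpl38 (-0.55, adjusted p = 0.0319) fell and Rps18 rose. Over all tested genes 0.439% were called higher and 0.327% lower at 7 days. The list's median was 0.005 beside -0.06 for all tested genes. Zfp931, Zfp874a, Fra10ac1 and Ighg3 were also among the named falls, with differences from -1.11 for Zfp931 to -0.94 for Zfp874a.

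The largest rises at 7 days came from the probe sets that were low on the 2 control arrays. Atp5d, a subunit of ATP synthase, read 6.13 and 6.99 on them and 8.62 to 9.78 on the other 14 arrays, while its other probe set read 8.63 and 8.40 on them and 8.29 to 8.85 on the others. Vim, the intermediate filament gene of mesenchymal cells, showed the same in a probe set that is not its brightest: 8.78 and 9.43 against 11.14 to 11.88, beside 12.66 and 12.63 within 12.50 to 12.99 for the brightest. For Atp5d and Vim the low probe set and the other probe set under the same symbol thus gave different answers. Whether the probe sets of a gene measure the same RNA was not tested.

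In all, 25 of the 48 low probe sets carried 1 gene symbol and stood for 22 genes, of which 20 had 26 other probe sets above the filter. The 7-day differences of those other probe sets ran from -0.63 to 1.81, with a median of -0.12. An exception was Ywhag, a 14-3-3 protein gene, where another probe set read 6.46 and 7.10 on the 2 control arrays and rose by 1.81 and 1.10. Rps18 and Tmem202 had no other probe set to compare, and Rps18 read 6.05 and 6.27 in control at 7 days against 8.87 and 8.75 with thyroxine. Rps18, Tpt1, Tuba1b, Myl12a and Rps12-ps24 have near-identical copies elsewhere in the genome, so their values may not belong to the named locus alone. Rps12-ps24, a pseudogene, went the other way, from 7.55 and 6.69 in control to 4.49 and 4.30 with thyroxine. At 3 days alone, the difference of the 8 called genes with a low brightest probe set ran from -0.52 for Rps18 to -0.10 for Zfp526.

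**Figure D4:**
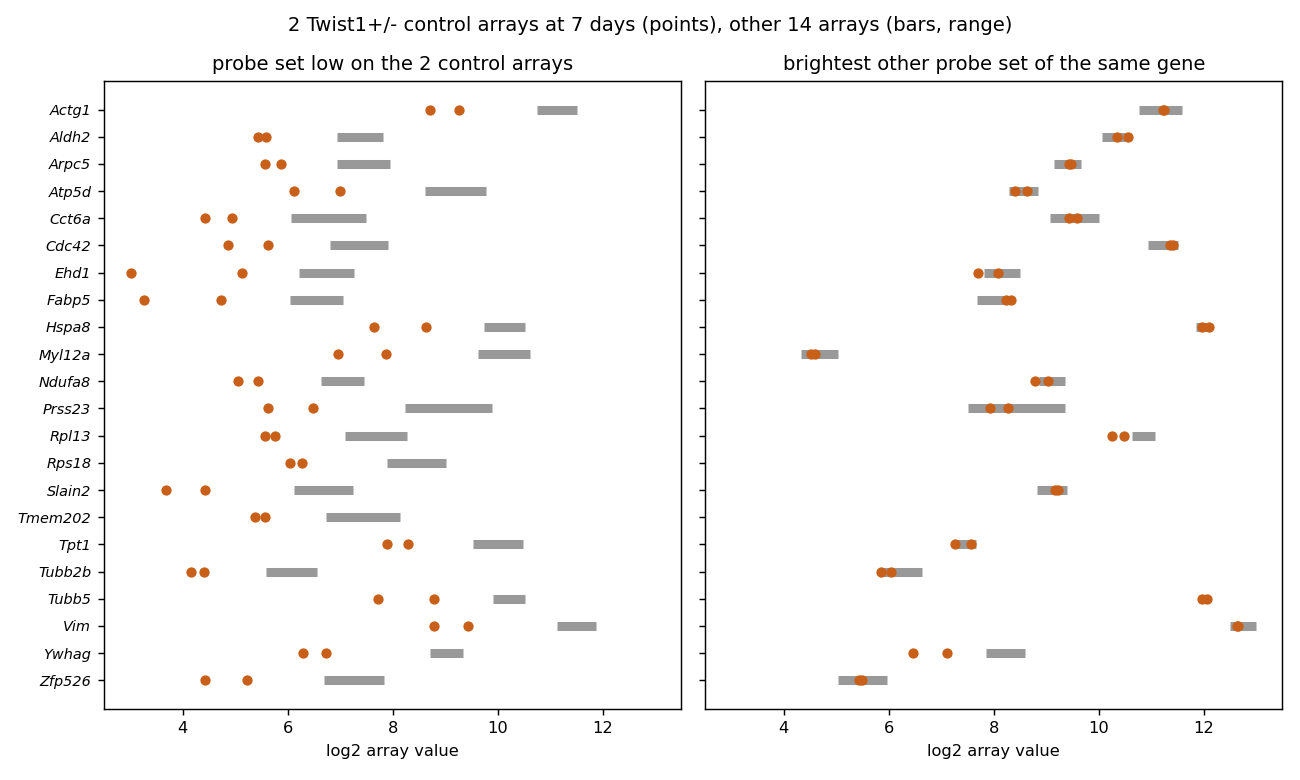
Log2 values of the 22 genes with a probe set low on the 2 Twist1+/- control arrays at 7 days (orange points), with the range of the other 14 arrays as grey bars, for the low probe set (left) and the brightest other probe set of the gene (right). On the right the points fall within or near the bars for most genes, as for Vim at 12.66 and 12.63, with Ywhag outside, and Rps18 and Tmem202 have no entry there.

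The response at 7 days minus that at 3 days passed the test for 16 genes (0.119%), 15 more positive at 7 days (0.111%) and 1 more negative (0.00743%), and 1147 reached an unadjusted p under 0.05. All 8 genes with a low brightest probe set were among them, as were Tuba1b, Snord69 and Rps12-ps24. Leaving out a pair gave between 6 genes, without the female pair at 7 days, and 56, without the male pair at 3 days. For Klf9 the difference between days was 0.28, with a 95% interval from -0.08 to 0.65, and for Igfbp4 it was 0.38, from 0.09 to 0.68. For Heg1 it was 0.28, from -0.09 to 0.65. For Fam180a it was 0.02, from -0.55 to 0.60.

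The response differed from that of wild type for 8 genes over both days (0.0595%), all more positive in Twist1+/- cells, with 1282 at an unadjusted p under 0.05. They were Atp5d, Mir328, Rny3, Rps18, Snord49a, Snord69, Tuba1b and Ywhag. For Atp5d, Rps18 and Ywhag the brightest probe set was low on the 2 Twist1+/- control arrays at 7 days. This also holds for Prss23, Zfp526, Myl12a and Tmem202, which were called for the genotype difference at 7 days. At 3 days limma called 0 (584 unadjusted, smallest adjusted p = 0.885) and at 7 days 25 (0.186%), 21 more positive (0.156%) and 4 more negative (0.0297%). Without the wild-type male culture the counts were 0 over both days (513 unadjusted) and 7 at 7 days. Leaving out either Twist1+/- pair at 7 days gave 0 over both days and 11 or 14 at 7 days, and leaving out the female pair at 3 days gave 202 over both days, 75 at 3 days and 98 at 7 days. Galnt18 was lower in Twist1+/- pairs and higher in wild-type pairs at 7 days, by 0.49 and 0.66, a difference between genotypes of -1.34 (adjusted p = 0.0211). Pbp2 differed by -1.71 (adjusted p = 0.0229). For Huwe1 the difference over both days was -0.53 and did not pass (adjusted p = 0.172).

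Small RNA genes made up 6 of the 27 calls over both days and 14 of the 103 at 7 days. This comparison of classes was chosen after the values were seen. At 7 days 8 of 63 small nucleolar RNA genes were called (12.7%), 7 higher and 1 lower, and 5 of 100 microRNA genes (5%), beside 0.601% of 12653 protein-coding genes. Small nucleolar RNAs guide chemical modification of ribosomal and spliceosomal RNA. Snord49a read 9.36 and 8.82 in control and 11.09 and 10.96 with thyroxine at 7 days, and Snord69 read 8.42 and 7.78 in control and 10.09 and 9.82 with thyroxine. The class as a whole varied from pair to pair, with medians of -0.30 and 0.64 at 3 days and 0.20 and 0.11 at 7 days, and from -0.52 to -0.11 in wild-type pairs.

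Rny3, a Y RNA bound by Ro60, read 7.72, 7.13, 8.82 and 8.56 in control and 8.25, 8.33, 9.44 and 9.19 with thyroxine. It rose in 4 of 4 pairs, by 0.75 ± 0.11 (adjusted p = 0.0158), and was lower with thyroxine in 4 of 4 wild-type pairs, a difference between genotypes of 1.18 ± 0.16 (adjusted p = 0.0193). Scarna2, an RNA of Cajal bodies, read 8.70, 8.63, 9.50 and 9.41 in control and 8.42, 8.29, 8.73 and 8.33 with thyroxine, a fall of 0.62 on the log2 scale (adjusted p = 0.0179). Mir328 read 3.82, 4.08, 3.27 and 2.90 in control and 5.09, 5.13, 4.25 and 4.27 with thyroxine, without overlap. It rose by 1.17 ± 0.16 (adjusted p = 0.0072), but all its control arrays but 1 were below the mean of 3.91 that a gene needed to be tested. The array value of a microRNA gene cannot be assigned to a mature arm.

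The microRNA genes called at 7 days were Mir328, Mir3110, Mir339 and Mir92b, higher, and Mir665, lower, which lies in the imprinted Dlk1-Dio3 region. RefSeq on GRCm38.p6 gave mature arms for 4 of the 5. They are shown because their seeds, bases 2 to 8, in capitals, set which transcripts each arm could pair with.
mmu-miR-3110-5p: uUCUGCCUccccugaaggcuc
mmu-miR-3110-3p: gCACUCCAucggaggcagacac
mmu-miR-339-5p: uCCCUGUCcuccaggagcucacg
mmu-miR-339-3p: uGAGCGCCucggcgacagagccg
mmu-miR-92b-5p: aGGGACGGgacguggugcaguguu
mmu-miR-92b-3p: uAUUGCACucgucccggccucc
mmu-miR-665-5p: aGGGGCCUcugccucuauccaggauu
mmu-miR-665-3p: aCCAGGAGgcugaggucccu
No seed was shared between the 8 arms. Mir3110 rose by 1.00 at 7 days (adjusted p = 0.0185), from 6.63 and 6.67 to 7.43 and 7.86. Mir339 rose by 1.04 (adjusted p = 0.0494) and Mir92b by 0.65 (adjusted p = 0.0319). Mir665 read 5.27 and 5.59 in control and 4.25 and 4.11 with thyroxine at 7 days, and 4.26 and 3.89 in control against 4.16 and 4.14 with thyroxine at 3 days. Its difference at 7 days was -1.25 (adjusted p = 0.0337), and it was the 7-day control arrays that lay above the rest.

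Genes of the suture and of bone formation showed no called change over both days, at 3 days or at 7 days. Over both days 0 of 12 tested osteoblast genes and 0 of 26 suture mesenchyme and Twist1 partner genes were called, with medians of -0.002 and -0.015 beside -0.032 for all tested genes and with 0 and 2 genes at an unadjusted p under 0.05. Dlx5, a homeobox gene of bone precursors, differed by 0.16 ± 0.12 and Alpl, alkaline phosphatase, by -0.14 ± 0.12. Among ligands and receptors known for suture patterning, Efna2 and Efna4 differed by -0.28 each (adjusted p = 0.405 and 0.455). Of the 17 tested genes of FGF receptors and their feedback 0 were called (0 unadjusted), and Dusp6, a feedback phosphatase, differed by 0.13 ± 0.07.

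The BMP and TGF-beta, WNT, extracellular matrix and cell cycle lists also held no call over both days. For BMP and TGF-beta genes, 0 of 30 were called (6 with an unadjusted p under 0.05) and 10 were higher and 20 lower, beside 39.9% higher among all tested genes, with Bmp4 at 0.33 ± 0.11 (adjusted p = 0.347) and Smad7, an inhibitory SMAD, at -0.34 ± 0.11 (adjusted p = 0.351). For WNT genes, 0 of 31 were called (3 unadjusted). For 33 extracellular matrix genes 0 were called over both days (8 unadjusted). At 3 days 7 of those were higher and 26 lower with a median of -0.09 beside -0.005 for all genes, of which 48.5% were higher. At 7 days 18 were higher and 15 lower with a median of 0.025 beside -0.06. In 4 of 4 pairs 4 matrix genes were higher and 8 lower, beside 4.53% higher and 8.1% lower among all tested genes. Over both days the smallest p of the list was that of Mxra7, higher by 0.35 ± 0.08 (adjusted p = 0.144), followed by Vcan, Col6a3 and Tnc, which were lower in every pair (adjusted p 0.175, 0.212 and 0.252). For 25 cell cycle genes 0 were called (4 unadjusted). In 4 of 4 pairs 0 of them were higher and 7 lower, beside the same 4.53% and 8.1% of all tested genes. Among the 7 was the proliferation marker Mki67 (-0.31 ± 0.10, adjusted p = 0.33), while Ccnb2 was 0.31 higher over both days.

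In the list of interferon and inflammation genes the response was compared with that of wild type. Il6, the cytokine interleukin 6, read 6.39, 6.24, 7.32 and 6.69 in control and 6.13, 6.08, 6.83 and 6.03 with thyroxine. It was lower in 4 of 4 pairs, and its difference of -0.39 ± 0.10 did not pass the test (adjusted p = 0.222), while in wild type its difference of -0.74 did (adjusted p = 0.0436), as 1 of 2 genes called there (0.0149%), 1 higher and 1 lower (0.00743% each). The difference between genotypes was 0.35, with a 95% interval from 0.04 to 0.66, and did not pass either (adjusted p = 0.484). Rtp4, an interferon-induced gene, read 7.13, 8.12, 8.18 and 8.26 in control and 7.60, 8.45, 8.59 and 8.61 with thyroxine, and it differed by 0.39 ± 0.09 (adjusted p = 0.152). It was lower in the wild-type pairs, and the genotype difference was 0.73 (adjusted p = 0.0713). Over the 20 tested genes the median was 0.094 in Twist1+/- and -0.26 in wild-type cells, 18 of 20 had the more positive response in Twist1+/- cells and 0 were called for that difference, with 10 at an unadjusted p under 0.05. Of all tested genes, 42.9% had the more positive response in Twist1+/- cells. With the wild-type female pairs alone, a choice made after the values were seen, the count was again 18 and the wild-type median -0.17.

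Marker lists of other cell types were compared in the same way. Of 18 macrophage and osteoclast genes 0 were called at 7 days (6 with an unadjusted p under 0.05), 14 were lower (39% of all tested genes were higher) and the median was -0.19 beside -0.06, while at 3 days the median was 0.04. Mrc1 and Adgre1, macrophage receptors, differed by -0.36 and -0.47 and by -0.41 and -0.33 in the 7-day pairs. Fcgr3 was higher in 4 of 4 pairs (0.27 ± 0.08, adjusted p = 0.299). Of 12 smooth muscle and pericyte genes 0 were called (4 unadjusted) and 1 was higher and 11 lower over both days, with a median of -0.076 beside -0.032 and with Cnn1, calponin, at -0.38 ± 0.11 (adjusted p = 0.295). Of the endothelial, skeletal muscle, neural and epithelial lists 4, 8, 6 and 3 genes were above the filter and 0 were called over both days, with 0, 2, 1 and 0 at an unadjusted p under 0.05. The neural marker Stmn2 was higher in 4 of 4 pairs (0.65 ± 0.12, adjusted p = 0.0583). The part of such cells in the 7-day calls was not tested.

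**Figure D5:**
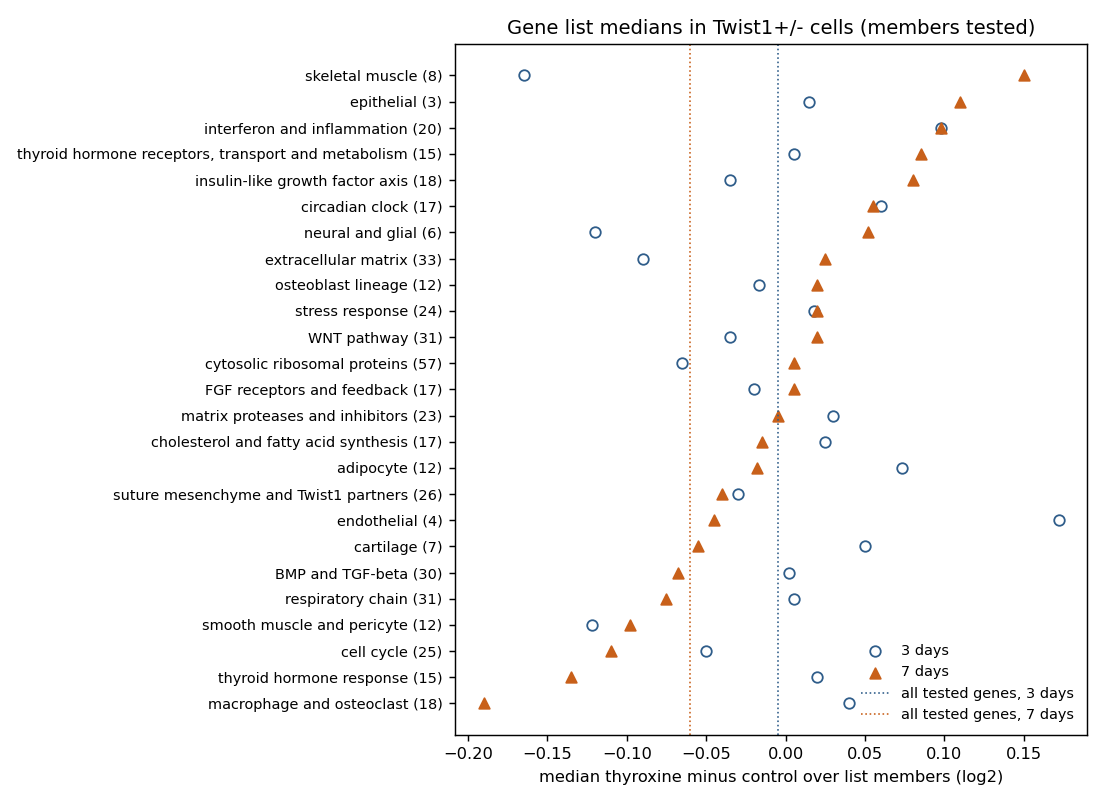
Median thyroxine minus control difference (log2) over the tested members of each of 25 gene lists in Twist1+/- cells, with open circles for 3 days, filled triangles for 7 days and dotted lines for the medians of all tested genes (-0.005 and -0.06). The macrophage and osteoclast list has the lowest 7-day median, -0.19, and the list medians stay within 0.2 of 0.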

How the data were processed

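The 16 arrays measured RNA per probe set. The authors deposited log2 values, which the submitters' processing notes attribute to RMA in Affymetrix Expression Console. Versions and build were not given in the sources used here. RMA gives every array the same distribution of probe signals before they are summarised. A change in total RNA is therefore invisible in these values, and differences near the background shrink. The summarised values can still differ in level, with array medians over all probe sets from 3.73 to 3.86. Each array received 100 ng of total RNA labelled with the GeneChip WT PLUS kit, per the labels' protocols. Precision is limited by the number of arrays.

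Symbols were single for 23521 of 41345 probe sets, several for 1814 and missing for 16010. By Entrez identifier 23328 of the named probe sets matched, and 0 symbols changed. Each of 22180 genes was represented by its brightest probe set. A gene was tested (13453 were) when its mean reached 3.91, the 40th percentile of named probe sets.

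The model (limma 3.58.1, R 4.3.3, eBayes with trend, two-sided tests, Benjamini-Hochberg adjustment over all tested genes) used all 16 arrays, with 8 pairs as a fixed block and 1 thyroxine effect per genotype and day. It had 4 residual and 9.30 prior degrees of freedom. Arrays were paired by culture and day, since per the labels' protocols each genotype, sex and time had wells of both media in a plate. As a check of the pairing, the male minus female difference in control arrays was correlated with that in thyroxine arrays: 0.12 at 3 days and 0.39 at 7 days for Twist1+/-, 0.77 and 0.72 for wild type. For Twist1+/- at 3 days the Spearman value was 0.05, so the check says little for the pairing of those arrays. The fit was tested on simulated data.

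Named genes were those past an adjusted p of 0.05 whose pairs in the comparison all had the same sign (for differences of effects, pair differences that do not overlap), by size, up to 15 per direction over both days and up to 10 elsewhere. If fewer than 10 qualified, the 5 with the smallest p on each side were named. Added to these were up to 4 per list and Twist1, Klf9, Hr, Thra, Thrb, Dio2, Dio3 and Il6. Genes with an uncharacterised name were left out. Some called genes outside this rule are given as well, as stated where they appear. The members, the 25 gene lists and the alternatives were chosen with earlier results of these data known. Alternatives varied the arrays, the block, the trend, the filter, the probe set per gene, the scaling and the pairs included.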

Additional observations from a re-analysis of the deposited data

Results flagged for a closer look

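The response differed between days for 11 named genes, as tested by limma on the 7-day minus the 3-day difference. The values were 3.38 for Atp5d, 3.17 for Rps18, 2.90 for Prss23, 2.85 for Myl12a, 2.80 for Ywhag, 2.58 for Zfp526, 2.56 for Tmem202, 2.49 for Tpt1, 2.30 for Tuba1b, 1.76 for Snord69 and -2.80 for Rps12-ps24. All but Tuba1b, Snord69 and Rps12-ps24 had a brightest probe set low on the 2 Twist1+/- control arrays at 7 days.

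The response differed from that of wild type over both days for 8 genes. The values, Twist1+/- minus wild type, were 1.59 for Atp5d, 1.59 for Mir328, 1.18 for Rny3, 1.19 for Rps18, 1.33 for Snord49a, 1.33 for Snord69, 1.22 for Tuba1b and 1.22 for Ywhag. Atp5d, Rps18 and Ywhag are genes with such a low probe set.

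At 7 days the genotype difference passed the test for 14 named genes. It was 3.56 for Atp5d, 3.10 for Rps18, 2.83 for Ywhag, 2.71 for Prss23, 2.61 for Zfp526, 2.59 for Myl12a, 2.59 for Tuba1b, 2.54 for Tmem202, 2.52 for Snord49a and 2.49 for Snord16a. On the other side it was -3.03 for Rps12-ps24, -1.71 for Pbp2, -1.58 for Ighg3 and -1.34 for Galnt18. Of the more positive genes, only Tuba1b, Snord49a and Snord16a did not have such a low probe set as their brightest.

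Among the 4 pair differences of a gene, 2 of 34 genes checked had a pair far from the other 3, and chance gives about 1 in 20. For Rny3 it was the male pair at 3 days (1.20). For Thrb it was the male pair at 7 days (-0.43).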

How the results depend on the processing

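Without the replicate block, counts of calls fell to 0 over both days (442 with an unadjusted p under 0.05 in limma), 8 at 7 days, 2 for the day difference, 0 for the genotype difference over both days (396 unadjusted) and 2 for that at 7 days. Without the intensity trend they were 0 (1251 unadjusted), 22, 5, 0 (1192 unadjusted) and 13 in that order. With the mean of all probe sets of a gene they were 47, 234, 36, 5 and 58. Robust eBayes gave 7 for the day difference, 2 for the genotype difference and 8 for that at 7 days. The 8 Twist1+/- arrays alone gave 59 at 7 days. Without the wild-type male culture the counts were 53 at 7 days, 0 for the genotype difference (513 unadjusted) and 7 for that at 7 days. When the pairs of a day are left out, the effect over both days becomes that of the other day alone. Without the 7-day pairs the 3-day effect gave 0 calls (288 unadjusted). Without the 3-day pairs the 7-day effect gave 349, all 27 among them. The causes of these changes were not tested.

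Leaving out each Twist1+/- pair in turn gave 0 to 232 calls over both days, 0 to 66 at 3 days, 14 to 351 at 7 days, 6 to 56 for the day difference, 0 to 202 for the genotype difference, 0 to 75 for that at 3 days and 11 to 98 for that at 7 days. A single pair left on a day was assumed to vary like the other groups.

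Without the 7-day pairs the difference over both days changed sign for Alox5 (-0.11), Atp5d (-0.26), Myl12a (-0.34), Prss23 (-0.29), Rps12-ps24 (0.07), Rps18 (-0.52), Tmem202 (-0.27), Tpt1 (-0.22), Tuba1b (-0.21), Ywhag (-0.29) and Zfp526 (-0.10). Dio2 changed sign with the mean of all its probe sets (0.21).

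Both filters, the centring of arrays, robust eBayes, the Twist1+/- arrays alone and leaving out the wild-type male culture kept the count over both days between 20 and 34. The 8 genes whose brightest probe set was low on the 2 control arrays at 7 days were also set aside, after seeing the data and without a new fit. This leaves 95 genes called at 7 days, 51 of them higher, a count that follows from their removal. Genes near the filter lie close to the background, where RMA compresses differences.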
